A study of Mus musculus with 2 samples.

Results

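The immediate early genes and the inducible heat shock genes were followed in forebrain cells of newborn mice. They are 10 genes picked by symbol from the 28001 features of the deposited count tables, and all 10 were found once each. There were 8 immediate early genes (Fos, Fosb, Jun, Junb, Egr1, Ier2, Atf3 and Dusp1) and 2 heat shock genes (Hspa1a and Hspa1b). The Gmnc-/- group was 1 single-cell library of C57BL/6J animals at P0 that lack Gmnc, a coiled-coil protein needed for multiciliated cells, and the wild-type group was 1 library of their littermates. Each library pooled 4 animals, the mutants coming from 2 litters, so a cell cannot be traced to its animal. Cortical tissue, lateral and dorsal, was pooled with hippocampus, dissociated with the Miltenyi Neural Tissue Dissociation Kit (P), and read from the 3-prime end of the RNA. No other allele or treatment is given in the labels. With 1 library per genotype no difference has a replicate check: every comparison is between these 2 libraries, and the intervals in parentheses are 95% intervals for counting error alone.

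Immediate early genes are transcribed within minutes of a stimulus, without new protein synthesis, after kinases have activated factors already bound at their promoters. Fos and Jun proteins pair to form the AP-1 transcription factor, Egr1 is a zinc finger factor, and Dusp1 is a phosphatase that switches the activating MAP kinases off again. In brain tissue they mark recent neuronal activity, and they are also known to be induced in glia, vessels and immune cells by enzymatic dissociation; Hspa1a and Hspa1b encode inducible Hsp70, the chaperone made on heat and protein damage.

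Start-site sequences from RefSeq on GRCm38.p6 were available for 8 of the 10 genes, and the 250 bases before the start are shown for 6 of them. Fos, Jun, Junb and Dusp1 are shown because the comparisons within cell classes turn on them, and Hspa1a and Hspa1b because they are near copies. All are printed 5′ to 3′ on the gene's own strand. Fos lies at chr12:85473640-85473889 on the plus strand. The others lie on the minus strand, Jun at chr4:95052223-95052472, Junb at chr8:84978749-84978998, Dusp1 at chr17:26508473-26508722, Hspa1a at chr17:34972157-34972406 and Hspa1b at chr17:34959239-34959488. Capitals mark TGACG (the core of the cAMP response element TGACGTCA, which holds it on both strands), TGANTCA (the AP-1 site), GAANNTTC (the core of the heat shock element), TATAAA and CCAAT, each searched on both strands, together with the CArG box that serum response factor binds.
Fos: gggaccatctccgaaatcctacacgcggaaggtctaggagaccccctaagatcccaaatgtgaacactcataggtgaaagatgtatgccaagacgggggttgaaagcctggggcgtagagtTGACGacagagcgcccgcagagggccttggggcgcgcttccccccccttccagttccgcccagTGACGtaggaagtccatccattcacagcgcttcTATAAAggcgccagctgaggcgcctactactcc
Jun: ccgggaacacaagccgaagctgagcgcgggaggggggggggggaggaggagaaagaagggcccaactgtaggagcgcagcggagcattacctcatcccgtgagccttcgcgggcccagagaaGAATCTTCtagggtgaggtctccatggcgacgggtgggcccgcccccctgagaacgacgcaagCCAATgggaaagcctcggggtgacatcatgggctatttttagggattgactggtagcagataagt
Junb: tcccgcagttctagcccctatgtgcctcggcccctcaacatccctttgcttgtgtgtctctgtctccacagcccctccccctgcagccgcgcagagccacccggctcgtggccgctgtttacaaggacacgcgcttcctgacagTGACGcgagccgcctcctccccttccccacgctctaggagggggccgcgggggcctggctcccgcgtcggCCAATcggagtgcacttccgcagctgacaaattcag
Dusp1: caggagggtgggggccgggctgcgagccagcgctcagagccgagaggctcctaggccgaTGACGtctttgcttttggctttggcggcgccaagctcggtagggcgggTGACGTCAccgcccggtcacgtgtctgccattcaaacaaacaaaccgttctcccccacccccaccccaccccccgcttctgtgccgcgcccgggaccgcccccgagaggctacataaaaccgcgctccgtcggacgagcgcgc
Hspa1a: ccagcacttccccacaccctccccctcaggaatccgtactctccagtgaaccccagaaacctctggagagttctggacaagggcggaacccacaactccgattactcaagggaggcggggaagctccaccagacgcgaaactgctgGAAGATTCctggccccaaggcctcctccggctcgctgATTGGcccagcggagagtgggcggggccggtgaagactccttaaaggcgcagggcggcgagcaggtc
Hspa1b: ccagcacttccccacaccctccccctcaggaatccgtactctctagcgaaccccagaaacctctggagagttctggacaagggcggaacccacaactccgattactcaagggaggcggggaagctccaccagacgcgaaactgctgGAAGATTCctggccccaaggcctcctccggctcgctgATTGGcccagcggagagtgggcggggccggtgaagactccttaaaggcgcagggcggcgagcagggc

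TGACG stood in 5 of the 8 promoters (Fos, Fosb, Junb, Dusp1 and Atf3) and in 17.7% of 32817 promoters of the same length. The full TGACGTCA stood in Dusp1 and in 1.55% of all promoters. GAANNTTC stood in Jun, Hspa1a and Hspa1b and in 6.69% of all promoters, and CCAAT in Jun, Junb, Hspa1a and Hspa1b and in 33.8%. TATAAA stood in Fos and in 12.4% of all promoters. TGANTCA (6.75% of all promoters) and the CArG box (1.47%) had no match in these 8 windows. The Hspa1a and Hspa1b windows differed at 3 of 250 bases. Their transcripts were 86.3% identical over the longer of the pair and 54.2% identical over the last 500 bases, the part that 3-prime reads cover.

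The Gmnc-/- library held 155482657 unique molecules (UMIs) in 27663 barcodes and the wild-type library 88905819 in 13033. After filtering and removal of called doublets, 20293 Gmnc-/- and 10566 wild-type cells remained, with medians of 4440 and 6023 UMIs and of 1.18% and 3.07% mitochondrial counts. Doublets were called in 22.5% of Gmnc-/- and 3.40% of wild-type cells, and 51 cell barcodes were shared. Gmnc itself gave 80 UMIs in the Gmnc-/- and 66 in the wild-type library; the deleted part is not given in the sources used here, so this checks nothing. The cells fell into 14 named classes, called "-like" because the names were rebuilt from markers, and 6 unnamed clusters with 15.6% of Gmnc-/- and 16.9% of wild-type cells. Every marker of each of the 12 classes with 20 or more cells in both libraries was detected there. Ependymal-like cells numbered 0 and 125, and Cajal-Retzius-like cells 1 and 38.

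Over all cells each of the 10 genes was lower in the Gmnc-/- library, and Junb, Dusp1 and Atf3 were lower by 1.5-fold or more once 5 CPM had been added to both libraries. Together the 10 genes made up 1147 CPM (counts scaled to 1e6 UMIs) in the Gmnc-/- library and 1482 CPM in the wild-type library, a ratio of 0.774 (0.768 to 0.780). Of all 19972 genes with 10 or more UMIs, 48.4% were lower, against 10 of 10 here, and 4.27% were lower by 1.5-fold with 5 CPM added, against 3 of 10. That count leaves out Hspa1a and Hspa1b, whose ratios without the added 5 CPM were 0.317 and 0.393. Of the 7771 genes that averaged 20 CPM or more, 36% were lower and 5.57% were lower by 1.5-fold, against 8 of 8 and 3 of 8 of these genes. Those shares are over genes of all lengths, while 8 of the 10 genes span under 10 kb. At 20 CPM or more, 82.0% of genes under 3 kb and 68.5% of genes at 3 to 10 kb were lower. By 1.5-fold, 23.08% and 13.02% of them were lower. Log2 ratios are of the Gmnc-/- over the wild-type library with 5 CPM added to both, and the median of the 10 was -0.37, against 0.0038 over the 19972 genes.

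Among the AP-1 genes, Junb, whose protein often restrains Jun, differed most. It stood at 44.5 CPM (43.2 to 45.8) in the Gmnc-/- library and 131 CPM (128 to 133) in the wild-type library, a log2 ratio of -1.46. Its partner gene Jun stood at 319 CPM (315 to 322) in the Gmnc-/- and 350.1 CPM (346 to 354) in the wild-type library, a log2 ratio of -0.13. Fos was at 294 CPM in the Gmnc-/- and 370.5 CPM in the wild-type library, and its paralog Fosb at 24.05 and 33.9 CPM, with log2 ratios of -0.33 and -0.42. The counting intervals of the libraries did not overlap for any of these 4 genes, and the Junb difference was the largest. Atf3, a stress-induced factor of the same leucine zipper family, was at 19.7 CPM in the Gmnc-/- and 33.6 CPM in the wild-type library (-0.64).

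The zinc finger gene Egr1 was at 292 CPM in the Gmnc-/- and 314 CPM in the wild-type library (-0.11), the smallest difference among the 8 immediate early genes. Ier2, a small nuclear protein of the early response, was at 106 and 157 CPM (-0.54). Dusp1 was at 46.5 CPM (45.2 to 47.8) in the Gmnc-/- and 88.6 CPM (86.5 to 90.7) in the wild-type library (-0.86). The heat shock genes were close to absent in both libraries: Hspa1a gave 63 UMIs in all Gmnc-/- and 156 in all wild-type cells, and Hspa1b 37 and 74. Their ratios were 0.317 (0.233 to 0.428) and 0.393 (0.257 to 0.591). The 5 CPM added shrink their log2 ratios to -0.31 and -0.14, and with 1 CPM added they were -0.87 and -0.50.

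**Figure D1:**
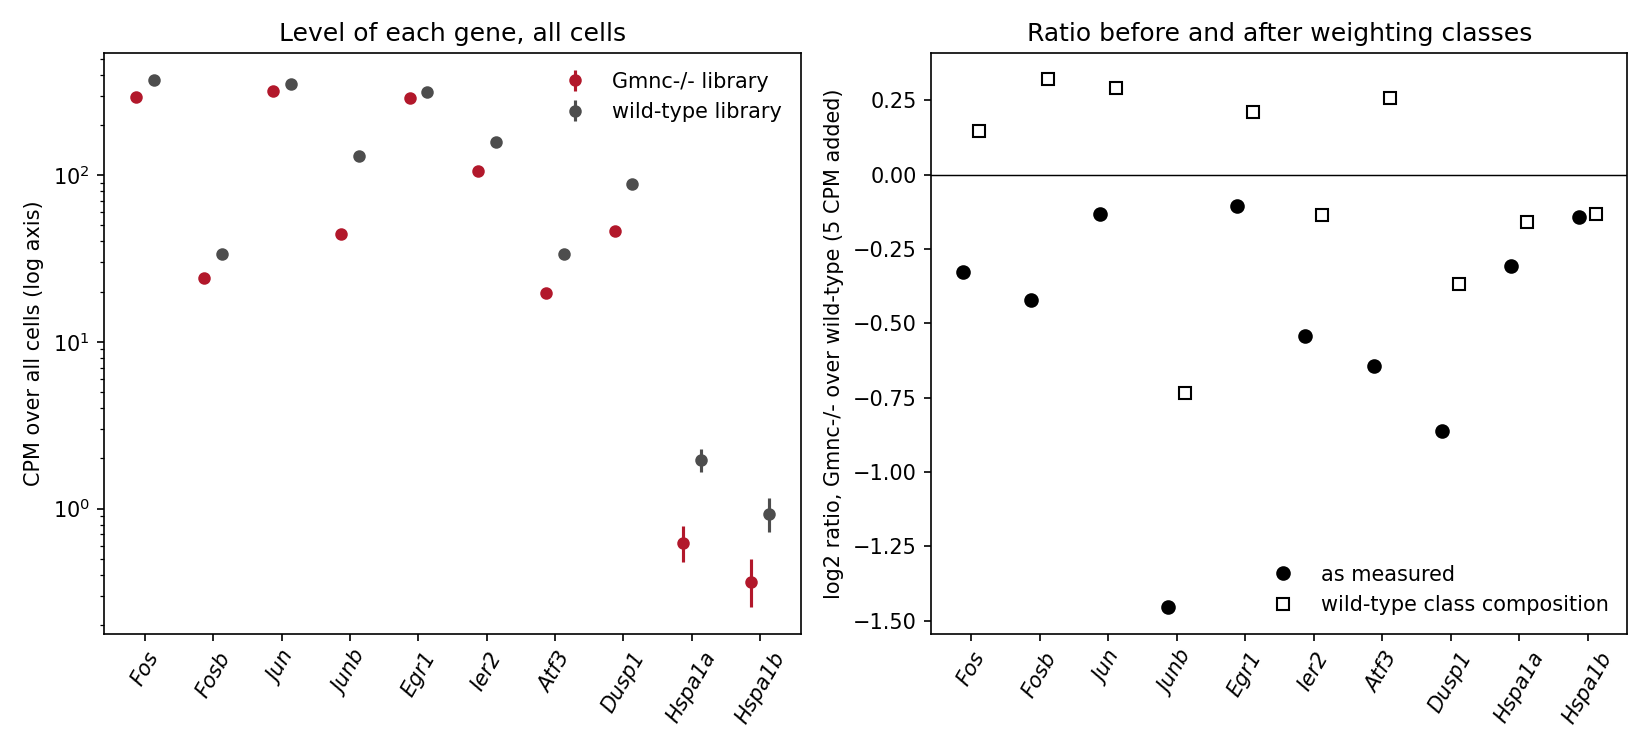
Left, CPM of each gene over all cells of the Gmnc-/- (red) and wild-type (grey) library on a log axis, with 95% Poisson intervals. Right, the log2 ratio of each gene as measured (filled) and with both libraries weighted to the wild-type class composition (open); all 10 filled points lie below 0, while 5 of the open points lie above it.

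The libraries differed in their cell classes, and the genes are concentrated in some of them. The 5 vascular, immune and meningeal classes (macrophage-, microglia-, endothelial-, mural- and meningeal fibroblast-like cells) made up 4.12% of Gmnc-/- and 8.80% of wild-type cells, and 6.33% and 14.1% of the UMIs, but they held 26.8% (26.5% to 27.0%) of the UMIs of the 10 genes in the Gmnc-/- library and 43.4% (43.1% to 43.7%) in the wild-type library. Atf3 had most of its UMIs there, with 83.0% of its Gmnc-/- and 91.4% of its wild-type UMIs. Junb had 57.0% and 69.3% of its UMIs in these classes, Dusp1 33.4% and 56.8%, Fos 23.0% and 35.1%, and Egr1 20.5% and 34.0%.

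With every class given its share of the wild-type UMIs, over the 18 classes and unnamed clusters with 20 or more cells in both libraries, the 10 genes summed to 1592 CPM in the Gmnc-/- and 1497 CPM in the wild-type library, a log2 ratio of 0.09. Then 5 of the 10 genes were lower and 5 higher, against 38.5% of all genes lower, and 1 of 10, Junb, was lower by 1.5-fold, against 1.42%. Among the 8 at 20 CPM or more, 3 were lower, against 32.9%, and 1 by 1.5-fold, against 2.73%. These shares too are over genes of all lengths. At 20 CPM or more, 81.4% of genes under 3 kb and 66.8% of genes at 3 to 10 kb were lower after weighting. By 1.5-fold, 13.31% and 7.49% of them were lower. Fosb (0.32), Jun (0.29), Atf3 (0.26), Egr1 (0.21) and Fos (0.15) were higher in the Gmnc-/- library on this weighting. Junb (-0.74), Dusp1 (-0.37), Hspa1a (-0.16), Ier2 (-0.14) and Hspa1b (-0.13) were lower. The sign of the weighted sum depended on the doublets: with called doublets kept, its log2 ratio was -0.16.

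The level of the 10 genes differed far more between cell classes than between libraries. Macrophage-like cells had the most, at 7658 CPM (7485 to 7835) in the Gmnc-/- and 7054 CPM (6942 to 7167) in the wild-type library. Microglia-like cells followed, at 4790 and 5075 CPM, with meningeal fibroblast-like cells at 4737 and 3505 CPM and endothelial-like cells at 3835 and 3522 CPM. In the Gmnc-/- library the microglia- and meningeal fibroblast-like intervals overlapped, and in the wild-type library those of endothelial- and meningeal fibroblast-like cells did, so these neighbours had no order. Mural-like cells, of which there were 45 and 46, had 3059 and 2325 CPM.

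Glia came next. Astroglia-like cells, which join apical progenitors and astrocytes, had 2125 CPM (2106 to 2145) in the Gmnc-/- and 2012 CPM (1992 to 2033) in the wild-type library and held 39.5% and 30.9% of all UMIs of the 10 genes. Oligodendrocyte lineage-like cells had 1584 and 1444 CPM, and ependymal-like cells 1205 CPM in the wild-type library. Intermediate progenitor-like cells had 700.2 and 729 CPM.

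Neurons were lowest. Interneuron-like cells had 375 CPM in the Gmnc-/- and 351 CPM in the wild-type library, striatal-like cells 249 and 184 CPM, and excitatory neuron-like cells 179 (174 to 184) and 187 CPM (181 to 194). In the wild-type library excitatory neuron-, striatal- and Cajal-Retzius-like cells (186 CPM) had overlapping intervals. Erythroid-like cells, in which these RNAs are not known to be abundant, had 164 CPM (148 to 180) and 44.1 CPM (35.3 to 54.4), and the Gmnc-/- value overlapped that of excitatory neuron-like cells. The erythroid-like level thus differed between the libraries by a ratio of 3.71 (2.94 to 4.74), a log2 ratio of 1.78 that was 1.07 under median-of-ratios scaling. In that class the median gene at 20 CPM or more was also higher, by 0.63. The 7 erythroid markers alone took 744384 CPM there in the Gmnc-/- and 812466 CPM in the wild-type library. All other genes thus shared a smaller part of the wild-type UMIs, and the part of this in the ratio was not tested. Free RNA gives UMIs in cells that do not make a gene, and its part in the erythroid-like and other low levels was not tested.

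**Figure D2:**
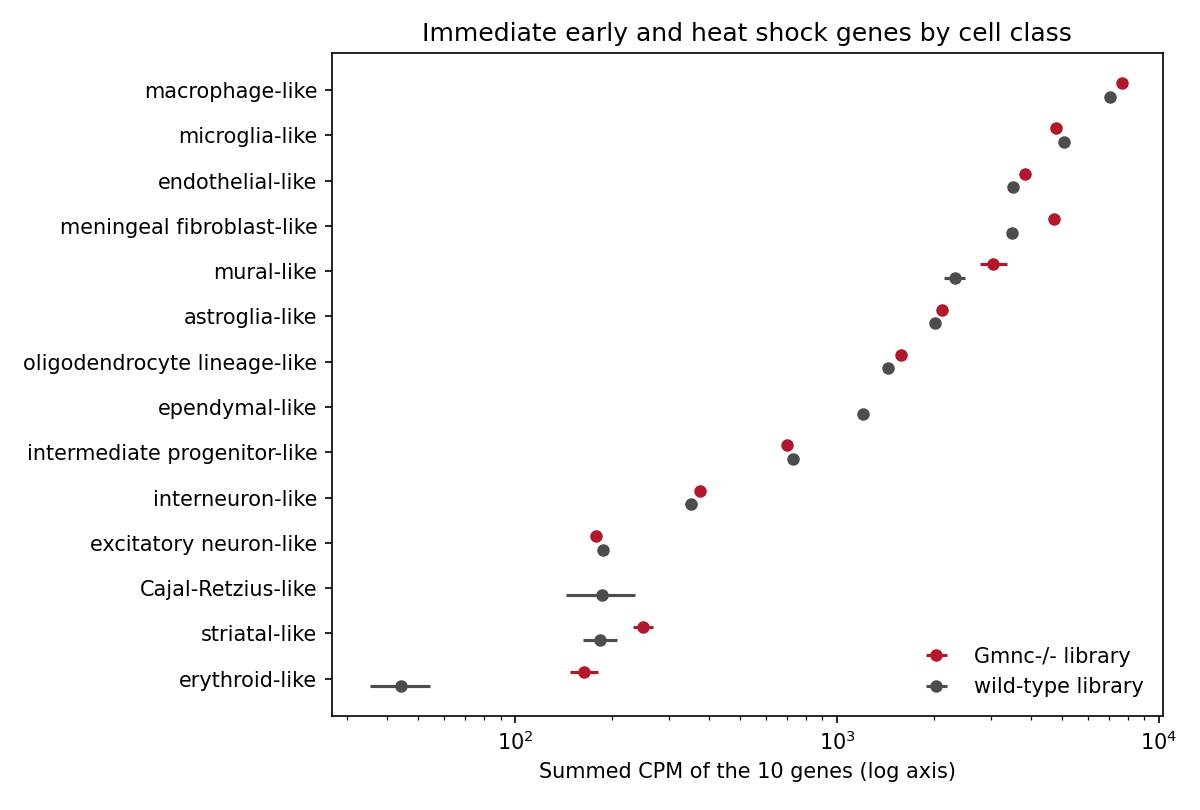
Summed CPM of the 10 genes in each class, on a log axis, for the Gmnc-/- (red, upper point) and wild-type (grey, lower point) library with 95% Poisson intervals, for classes with 20 or more cells. Levels run from 7658 and 7054 CPM in macrophage-like cells to 164 and 44.1 CPM in erythroid-like cells.

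Within classes the sum was lower in the Gmnc-/- library in 3 of the 8 classes with 200 or more cells in both libraries. These were microglia-like (ratio 0.944, 0.920 to 0.968), excitatory neuron-like (0.955, with an interval that reaches 1) and intermediate progenitor-like cells (0.961, 0.924 to 0.999). Astroglia-like (1.06), interneuron-like (1.07), oligodendrocyte lineage-like (1.10), striatal-like (1.36) and erythroid-like cells (3.71) had higher sums. Of the 3 astroglia-like clusters, 1 stood clearly higher, at 1901.5 CPM in the Gmnc-/- and 1617 CPM in the wild-type library. Another had 2952 and 3001 CPM, and the last had 1672 CPM in each library. Astroglia-like cells turned to a log2 ratio of -0.08 under median-of-ratios scaling, which moved the median gene of that class by -0.16. The median gene moved by -0.25 in microglia-like, -0.18 in intermediate progenitor-like, -0.11 in oligodendrocyte lineage-like and -0.74 in erythroid-like cells, and by under 0.1 in the other 3.

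Jun and Junb differed in opposite directions within cell classes. Jun was higher in the Gmnc-/- library in 8 of 8 classes, and in 6 of 8 under median-of-ratios scaling, where microglia- and intermediate progenitor-like cells turned to -0.24 and -0.06. Junb was lower in 7 of 8 under both scalings, with erythroid-like cells the exception. Ier2 was likewise lower in 7 of 8 under both scalings. Dusp1 was lower in 7 of 8, or 6 of 8 under median-of-ratios scaling, where striatal-like cells stood at 0.00052. As CPM, too, Dusp1 was close to equal in striatal-like cells (32.4 and 32.5 CPM, ratio 0.997, 0.699 to 1.44). The Junb ratio interval in striatal-like cells also included 1 (0.192 to 1.24). Of the 8376 genes with 10 or more UMIs in each of the 8 classes, 16.2% were lower in at least 7, against 3 of the 7 genes here that reach that count, and 29.2% were higher in all 8, against 1 of 7. These shares are over genes of all lengths.

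In astroglia-like cells Jun was at 607 CPM (596 to 617) in the Gmnc-/- and 513 CPM (502 to 523) in the wild-type library, while Junb was at 54.1 CPM (51.1 to 57.3) and 117 CPM (112 to 122). In microglia-like cells Jun was at 952 and 945 CPM, with overlapping intervals, and Junb at 423 and 797 CPM. In endothelial-like cells Jun was at 1369 and 931 CPM and Junb at 469.7 and 697 CPM. The same split was seen in macrophage-like cells, with Jun at 1672 and 1386 CPM and Junb at 437 and 658 CPM, and in meningeal fibroblast-like cells, with Jun at 1428 and 939.7 CPM and Junb at 179 and 301 CPM. Oligodendrocyte lineage-like cells had Jun at 272 and 233 CPM and Junb at 51.3 and 93.3 CPM.

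In neurons too Jun was higher in the Gmnc-/- library. Interneuron-like cells had 206 CPM of Jun in the Gmnc-/- and 172 CPM in the wild-type library, striatal-like cells 134 and 95.6 CPM, and excitatory neuron-like cells 60.8 and 50.5 CPM. Erythroid-like cells had 41.1 CPM of Jun in the Gmnc-/- and 14.2 CPM in the wild-type library, a gap wider than that of excitatory neuron-like cells, and its part in the neuronal Jun levels was not tested. Junb stood at 5.75 and 9.27 CPM in interneuron-like cells, at 4.46 and 7.96 CPM in excitatory neuron-like cells, and at 11 UMIs in each library, or 3.64 and 7.45 CPM, in striatal-like cells. Intermediate progenitor-like cells had Jun at 99.8 and 91.9 CPM and Junb at 6.80 and 12.2 CPM. Erythroid-like cells had 12.1 CPM (8.16 to 17.3) of Junb in the Gmnc-/- and 4.05 CPM (1.75 to 7.99) in the wild-type library. In the Gmnc-/- library interneuron-, excitatory neuron- and striatal-like cells lay below that level, and the intermediate progenitor-like interval overlapped it. In the wild-type library intermediate progenitor-like cells lay above the erythroid-like level, and the intervals of the other classes named here overlapped it.

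The number of Junb UMIs per Jun UMI sets both genes of a library against each other and does not depend on depth or scaling. It was 0.140 in the Gmnc-/- and 0.373 in the wild-type library over all cells. It was lower in the Gmnc-/- library in 11 of the 12 classes with 20 or more cells, for example 0.0892 and 0.228 in astroglia-like, 0.445 and 0.843 in microglia-like, 0.343 and 0.749 in endothelial-like and 0.125 and 0.320 in meningeal fibroblast-like cells. Erythroid-like cells had 0.294 and 0.286. Jun overlaps an antisense gene and Junb the gene Prdx2 on the other strand, and whether counting used strand is not given in the sources used here.

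**Figure D3:**
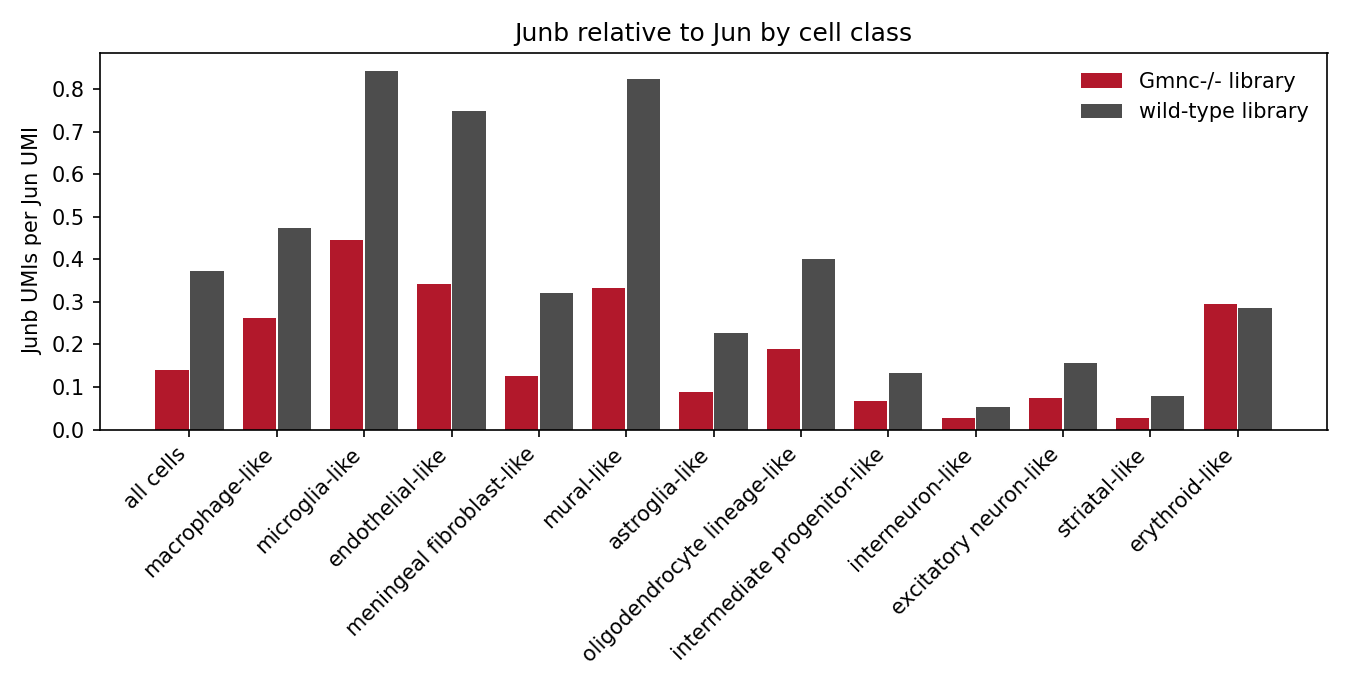
Junb UMIs per Jun UMI over all cells and in each class with 20 or more cells in both libraries, Gmnc-/- (red, left bar) and wild-type (grey, right bar). The Gmnc-/- bar is the shorter of each pair, as at 0.140 against 0.373 over all cells, except in erythroid-like cells.

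Fos and Fosb were higher in the Gmnc-/- library in macrophage- and meningeal fibroblast-like cells, the classes with the highest Fos. Macrophage-like cells had Fos at 2223 CPM (2131 to 2319) in the Gmnc-/- and 1822 CPM (1765 to 1880) in the wild-type library, and Fosb at 467 and 280.4 CPM. Meningeal fibroblast-like cells had Fos at 1581 and 976 CPM and Fosb at 319 and 260.1 CPM. Endothelial-like cells had more Fos, at 622 and 503 CPM, but less Fosb, at 73.9 and 96.6 CPM, so the pair differed in direction there. Astroglia-like cells, which held 53.9% of the Fos UMIs of the Gmnc-/- library, had Fos at 745 (734 to 757) and 715 CPM (703 to 727) and Fosb at 46.6 and 35.2 CPM, but the Fos log2 ratio there turned to -0.10 under median-of-ratios scaling.

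Microglia-like cells had less Fos, at 784 CPM in the Gmnc-/- and 846 CPM in the wild-type library (ratio 0.927, 0.870 to 0.987). Fos was at 297 and 303 CPM in oligodendrocyte lineage-like, 136 and 142 CPM in intermediate progenitor-like and 21.2 and 24.6 CPM in interneuron-like cells, each with overlapping intervals. In excitatory neuron-like cells Fos was at 14.2 CPM (12.8 to 15.8) and 18.1 CPM (16.1 to 20.3). Striatal-like cells had 19.9 and 12.2 CPM of Fos. Erythroid-like cells had 33.5 and 4.05 CPM, so the Gmnc-/- excitatory neuron-, interneuron- and striatal-like values lay below the erythroid-like level of their own library.

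Egr1 was highest in microglia-like cells. It was at 1635 CPM (1580 to 1690) in Gmnc-/- and 1400 CPM (1357 to 1444) in wild-type microglia-like cells, and at 766 and 579 CPM in oligodendrocyte lineage-like cells. Astroglia-like cells had 476 and 406 CPM, and intermediate progenitor-like cells 327 and 313 CPM with overlapping intervals. In macrophage-like cells it was at 888 and 901 CPM, again overlapping, although Fos differed there. Endothelial-like cells had 439 and 338 CPM and meningeal fibroblast-like cells 755 and 593 CPM. Interneuron-like cells had 62.2 and 49.5 CPM, striatal-like cells 42.0 and 21.7 CPM, and excitatory neuron-like cells 40.01 and 40.9 CPM, against 40.7 and 10.1 CPM in erythroid-like cells. Egr1 was higher in 7 of 8 classes, but in 5 of 8 under median-of-ratios scaling, where microglia-like cells stood at -0.02.

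Ier2 was lower in glia, progenitors and endothelium. It was at 144 CPM (139 to 149) in Gmnc-/- and 165 CPM (159 to 171) in wild-type astroglia-like cells, at 107 and 133 CPM in intermediate progenitor-like cells, and at 167 and 190.4 CPM in oligodendrocyte lineage-like cells (ratio 0.877, 0.793 to 0.970). Endothelial-like cells had 511 and 568 CPM. It was higher in meningeal fibroblast-like cells, at 205 and 167 CPM (1.23, 1.03 to 1.46). The ratio intervals of macrophage-like (1.06), mural-like (1.35), microglia-like (0.944), excitatory neuron-like (0.930), interneuron-like (0.895) and striatal-like cells (0.919) included 1. Other short genes were lower too: the log2 ratio of Ier2 (1.52 kb) was -0.19 in astroglia-like cells, against a median of -0.30 for genes under 3 kb. The pairs were -0.30 and -0.32 in intermediate progenitor-like, -0.18 and -0.23 in oligodendrocyte lineage-like and -0.08 and -0.20 in microglia-like cells. They were -0.09 and -0.28 in excitatory neuron-like, -0.14 and -0.23 in interneuron-like and -0.08 and -0.12 in striatal-like cells.

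Dusp1 was lower in glia and immune cells and in progenitors. Microglia-like cells had 88.3 CPM (76.1 to 102) in the Gmnc-/- and 176 CPM (161 to 192) in the wild-type library, macrophage-like cells 739 and 978 CPM, intermediate progenitor-like cells 20.3 and 33.3 CPM and oligodendrocyte lineage-like cells 24.6 and 41.1 CPM. Astroglia-like cells had 43.6 and 54.6 CPM. Interneuron-like cells had 40.5 and 53.5 CPM and excitatory neuron-like cells 23.5 and 29.9 CPM, and none of these intervals overlapped. Its annotated span overlaps several other genes, Ergic1 among them.

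Atf3 was highest in immune, meningeal and endothelial cells. Macrophage-like cells had 627 CPM (578 to 679) in the Gmnc-/- and 448 CPM (420 to 477) in the wild-type library, microglia-like cells 327 and 308 CPM, meningeal fibroblast-like cells 134 and 87.9 CPM and endothelial-like cells 106 and 108 CPM. The intervals of macrophage-like cells did not overlap, whereas those of microglia- and endothelial-like cells did. Astroglia-like cells had 8.63 and 5.66 CPM. No neuronal class had more than 1.66 CPM in either library.

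Hspa1a was seen mainly in the 5 vascular, immune and meningeal classes, which held 60.3% (47.2% to 72.4%) of its Gmnc-/- and 82.7% (75.8% to 88.3%) of its wild-type UMIs. Hspa1b had 8.11% (1.70% to 21.9%) and 47.3% (35.6% to 59.3%) of its UMIs there, with wide intervals. Hspa1a gave 17 UMIs in Gmnc-/- and 53 in wild-type macrophage-like cells, or 17.6 CPM (10.2 to 28.1) and 24.6 CPM (18.5 to 32.2), and 16 and 48 UMIs in meningeal fibroblast-like cells. Hspa1b gave 2 and 20 UMIs in meningeal fibroblast-like, 1 and 9 in macrophage-like and 10 and 12 in excitatory neuron-like cells. In astroglia-like cells Hspa1a had 11 and 10 UMIs and Hspa1b 6 and 12 UMIs, so among the largest glial class both were at a CPM below 1. The ratio left out 1 for Hspa1b in meningeal fibroblast-like cells (0.188, 0.0214 to 0.776) and for Hspa1a in endothelial-like cells (0.214, 0.0240 to 0.903, from 2 and 17 UMIs). In macrophage- and astroglia-like cells the ratio intervals of both genes included 1, and the differences there were not detectable at this depth.

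**Figure D4:**
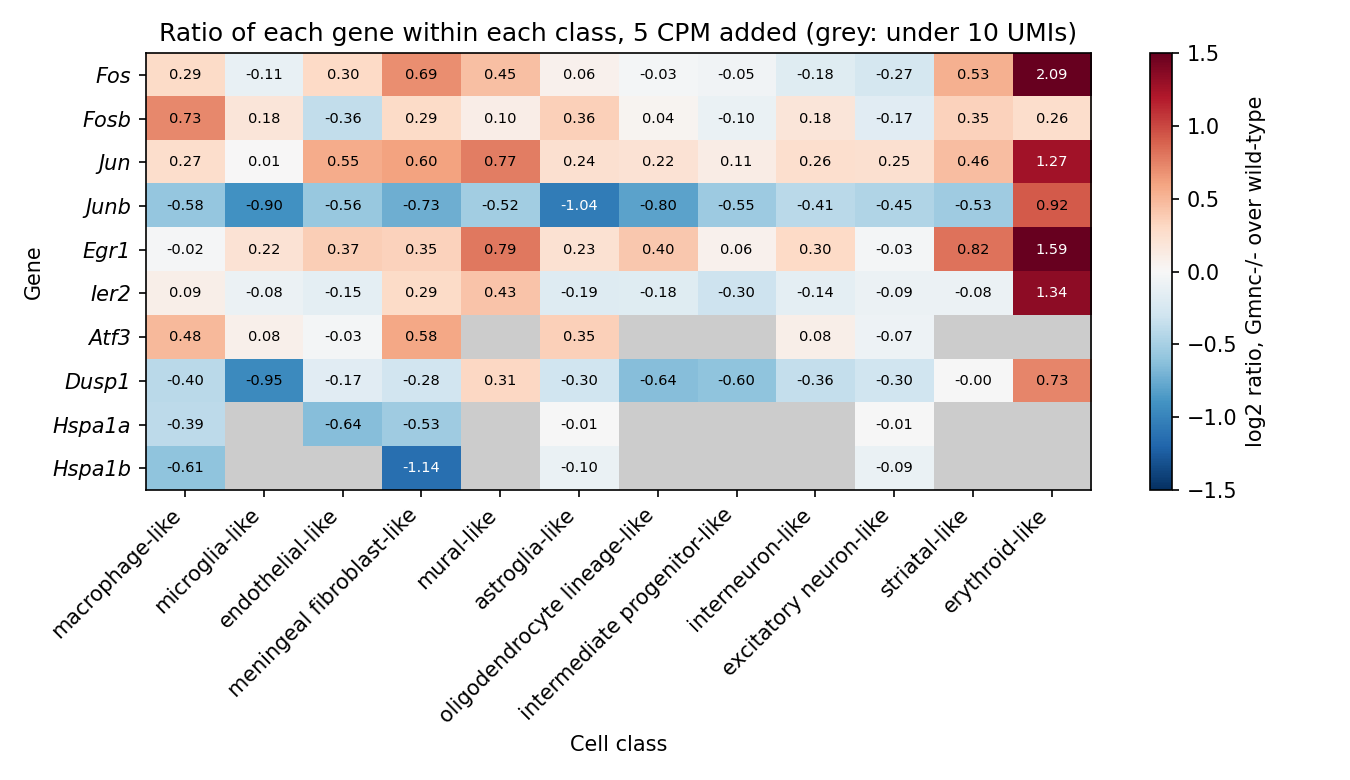
Log2 ratio of each gene within each class, Gmnc-/- over wild-type with 5 CPM added (red higher, blue lower, colours ending at 1.5), classes ordered by the level of the 10 genes in the wild-type library; grey cells have under 10 UMIs. The Jun row is above 0 in every class and the Junb row is below 0 in every class but erythroid-like, with 0.24 and -1.04 in astroglia-like cells; under median-of-ratios scaling Jun turned to -0.24 in microglia-like and -0.06 in intermediate progenitor-like cells.

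Most cells held few or no UMIs of the 10 genes. After thinning each cell to 2000 UMIs, which left out 2855 Gmnc-/- and 1832 wild-type cells, 13.2% (12.7% to 13.7%) of Gmnc-/- and 17.2% (16.4% to 18.0%) of wild-type cells had UMIs of 3 or more of them; without thinning it was 23.7% and 31.7%. Thinned shares were 89.9% and 81.2% in macrophage-like, 80.0% and 85.4% in microglia-like, 70.7% and 69.4% in endothelial-like and 34.6% and 36.4% in astroglia-like cells. They were 0.549% and 0.315% in excitatory neuron-like cells, at median depths of 4602.5 and 5921 UMIs, against 0.704% and 0.413% in erythroid-like cells, at 4765 and 6329.5 UMIs, and so not above the erythroid-like shares. Jun passed them in excitatory neuron-like cells, where 10.5% of Gmnc-/- and 9.13% of wild-type cells held it, against 3.99% and 2.89% of erythroid-like cells. So did Ier2, held by 6.70% and 6.61% of excitatory neuron-like cells, against 2.82% and 1.24% of erythroid-like cells. Dusp1 did too, at 5.10% and 5.85% against 1.17% and 0.826%. Egr1 was also higher in both libraries, but with overlapping intervals. Fos, Fosb, Junb and Atf3 lay below the erythroid-like share in the Gmnc-/- library.

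A small set of cells carried much of the signal. The highest 1% of cells held 17.0% of the UMIs of the 10 genes in the Gmnc-/- and 17.1% in the wild-type library. Cells with UMIs of 8 or more of the genes numbered 151 (0.744%) in the Gmnc-/- and 247 (2.34%) in the wild-type library, without thinning and at median depths of 4440 and 6023 UMIs. Of these, 52 and 77 were macrophage-like, 35 and 69 endothelial-like, 24 and 36 microglia-like, 19 and 33 meningeal fibroblast-like and 11 and 16 astroglia-like. No UMI of any of the 10 genes was found in 36.8% of Gmnc-/- and 33.3% of wild-type cells.

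Depth and mitochondrial share moved with the libraries, and the part of either in these results was not tested. In astroglia-like cells matched for mitochondrial share, the 10 genes had 2170 CPM in Gmnc-/- and 1658 CPM in wild-type cells at 1% to 2%, and 2528 and 1985 CPM at 2% to 3%, but 1749 and 2578 CPM at 3% to 5%, where 72 Gmnc-/- cells remained. Junb in the same cells was lower in the Gmnc-/- library in each of 5 mitochondrial and 4 depth ranges, for example 59.8 and 114 CPM at 6000 to 12000 UMIs. Below 3% mitochondrial share its gap was narrower than over the whole class (54.1 and 117 CPM). It stood at 42.7 and 48.1 CPM below 1%, 56.1 and 79.0 CPM at 1% to 2%, and 90.8 and 112 CPM at 2% to 3%. At 3% to 5% it was at 71.3 and 180 CPM. These ranges carry no counting intervals, and some are small, with 130 wild-type cells below 1% and 16 Gmnc-/- cells at 5% to 10%. Over all cells Junb was higher in the Gmnc-/- library at 2% to 3%, at 109 and 103 CPM, and lower in the other mitochondrial ranges. In macrophage-like cells neutrophil markers stood at 123 CPM in the Gmnc-/- and 3018 CPM in the wild-type library; without the 2 and 9 cells that held 2 or more such markers, the 10 genes stood at 7661 and 7156 CPM.

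Gene length also moved with the difference between libraries. At the wild-type class composition the median log2 ratio of genes at 20 CPM or more was -0.25 for spans under 3 kb, -0.12 for 3 to 10 kb, 0.07 for 10 to 30 kb and 0.22 above 100 kb. Of the 10 genes, 8 span under 10 kb, from 1.52 kb for Ier2 to 7.36 kb for Fosb. Jun (3.19 kb), Fos (3.38 kb), Egr1 (5.16 kb) and Fosb lay above the median of their length range and Junb (4.24 kb) below it. Ier2 lay above the median of the shortest range. Hspa1a and Hspa1b are too low for this comparison, since the 5 CPM added hold their log2 ratios near 0: weighted, they stood at 1.22 and 0.393 CPM in the Gmnc-/- library and at 1.94 and 0.908 CPM in the wild-type library. Atf3, annotated over 47.7 kb, lay above the median of its range (0.21), and Dusp1, annotated over 56.5 kb, lay below it. The start-site windows of both lie inside these spans, at chr1:191183334-191183583 and chr17:26508473-26508722, so their transcripts may belong to shorter ranges. Dusp1 (-0.37) also lay below the median under 3 kb (-0.25), and Atf3 (0.26) above that of 10 to 30 kb (0.07). The part of gene length in these ratios was not tested.

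**Figure D5:**
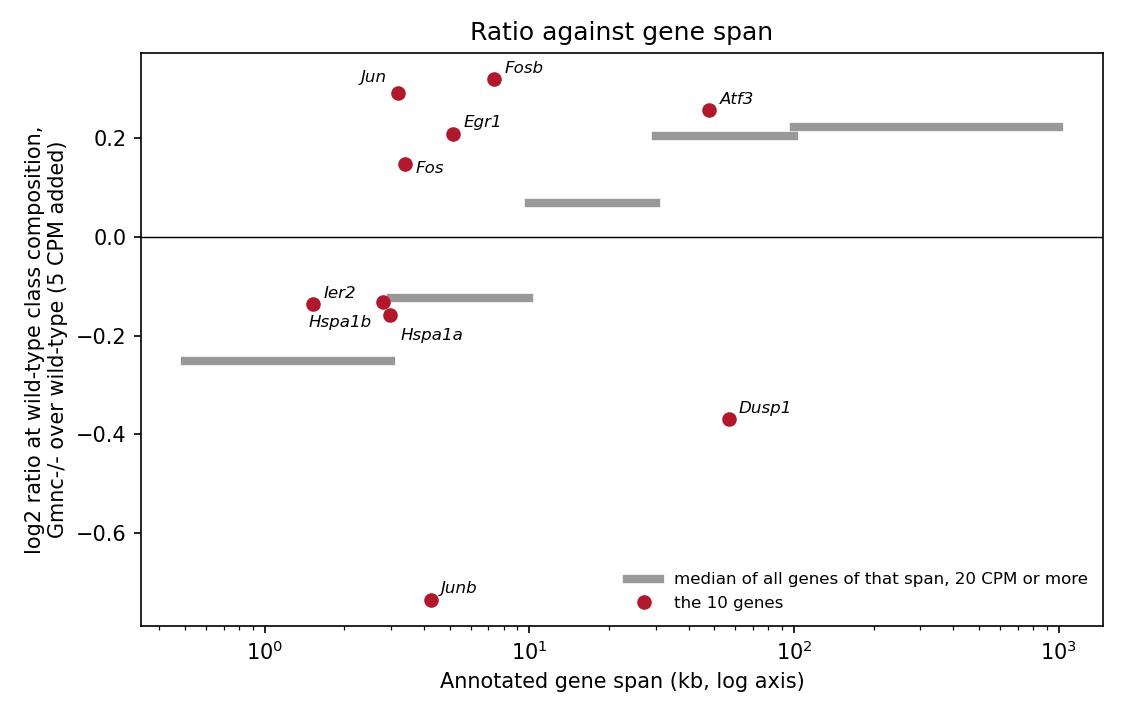
Log2 ratio at the wild-type class composition, Gmnc-/- over wild-type with 5 CPM added, against annotated gene span in kb on a log axis, for the 10 genes (red points), with the median of all genes at 20 CPM or more in each length range (grey bars, the outer ranges cut at the axis). Grey medians run from -0.25 under 3 kb to 0.22 above 100 kb, and Junb at -0.74 lies farthest from its bar.

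Other genes of the early response were mostly lower over all cells, where 48.4% of all genes were lower. Of 19 other immediate early transcription factor genes, 16 were lower in the Gmnc-/- library, with a median log2 ratio of -0.33, and of 24 other early response genes 20 were lower, with a median of -0.26. At the wild-type class composition, where 38.5% of all genes were lower, 12 of 19 and 15 of 24 were lower, with medians of -0.11 and -0.05. The shares of all genes are over genes of all lengths. Among genes at 20 CPM or more that span under 3 kb, 82.0% were lower as measured and 81.4% after weighting. At 3 to 10 kb it was 68.5% and 66.8%. Zfp36, which destabilises AU-rich messenger RNAs, was at 6.11 CPM in the Gmnc-/- and 32.7 CPM in the wild-type library, and at -1.20 on the log2 scale after weighting. Btg2, an antiproliferative early gene, was at 67.1 and 166 CPM (-0.96 after weighting), and Klf2, a factor of endothelial and immune cells, at 28.8 and 85.3 CPM (-0.40 after weighting). Npas4, the early factor particular to neurons, was at 0.796 and 0.563 CPM and Rgs2, a G protein regulator, at 25.8 and 22.4 CPM.

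Of genes of all lengths, 48.4% were lower as measured and 38.5% after weighting. Inflammatory early genes were lower in 8 of 8 both as measured and after weighting, with medians of -0.98 and -0.30. Il6 counts among them with 10 and 14 UMIs and a weighted log2 ratio of -0.00048. Neutrophil markers in macrophage-like cells, at 123 CPM in the Gmnc-/- and 3018 CPM in the wild-type library, moved with this group, and their part in it was not tested. The chemokine gene Ccl2 was at 1.92 CPM in the Gmnc-/- and 14.9 CPM in the wild-type library, Ccl4 at 4.29 and 21.2 CPM, and Cxcl2 at 8.67 and 30.7 CPM. Among 11 MAP kinase feedback genes 6 were lower, the ERK phosphatase gene Dusp6 at 9.88 and 23.2 CPM and its relative Dusp4 at 26.6 and 17.6 CPM.

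The heat shock programme beyond Hspa1a and Hspa1b had no common direction. Of 19 other heat shock and chaperone genes, 10 were lower as measured and 8 after weighting, near the 48.4% and 38.5% of all genes, with medians of -0.15 and 0.07. The abundant chaperone gene Hsp90ab1 was at 2400 CPM in the Gmnc-/- and 1903 CPM in the wild-type library and Hsph1 at 58.5 and 48.6 CPM, while the small heat shock gene Hspb1 had a ratio of 0.328 (0.287 to 0.375). Of 12 endoplasmic reticulum stress genes 7 were lower, of 16 upstream regulators 6, and of 8 late activity-regulated genes 4, against 48.4% of all genes, with medians of -0.02, 0.05 and 0.02. Mapk8, a kinase that phosphorylates Jun, was at 86.3 and 74.5 CPM. Of 3 nuclear-retained RNAs 1 was lower, Neat1, at 14.0 CPM in the Gmnc-/- and 25.9 CPM in the wild-type library (-0.70, and -0.01 after weighting). Malat1 was at 18141 and 14790 CPM.

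The level of the 10 genes across classes was described by its likeness to other genes over 16 points, the 8 classes in both libraries, which share libraries and depth. Among 6952 genes the highest Pearson correlations with the sum, on log2(CPM + 5), were for Map3k14 (0.97), Stat3 (0.97), Asah1 (0.97), Krcc1 (0.97), Prps2 (0.97), Akap13 (0.96), Hsd17b11 (0.96), Irf2 (0.96), Efhd2 (0.96) and Cd81 (0.96). Among the 10 genes themselves, Egr1, Fos, Ier2 and Jun correlated with the sum that holds them at 0.97, 0.96, 0.96 and 0.94, Junb at 0.88, Fosb at 0.82, Dusp1 at 0.79, Atf3 at 0.69, Hspa1a at 0.66 and Hspa1b, with the fewest UMIs, at 0.06.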

How the data were processed

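The deposited files hold counts of UMIs per gene and barcode. Per the submitters' processing notes the authors made them with Cell Ranger 7.1.0 on mm10, from 3-prime chemistry 3.1 per the labels; whether introns or strand entered the counting is not given in the sources used here. Every barcode in them has 500 UMIs or more.

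A minimum of 1000 UMIs and a mitochondrial share below 10% passed 26178 cells of the Gmnc-/- and 10938 of the wild-type library. Scrublet, in scanpy 1.11.5, was run per library; it called 5885 of the Gmnc-/- cells (20.9% expected) and 372 of the wild-type cells (8.75% expected), and these were removed. Both libraries were clustered together with leidenalg 0.10.2 (2000 variable genes, 30 principal components, 15 neighbours, resolution 1), leaving out the 10 genes, the other lists, mitochondrial genes, Xist and Y-linked genes. Of 35 clusters, 29 took the name of their best marker list, with 3 or more markers detected in 5% of cells. The minimum scores (neural lists 0.6, all others 2) were set after the clusters were seen, and names may differ from those of the study.

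UMIs were summed per library and class and given as CPM with exact Poisson intervals. Ratios have exact conditional and shares exact Clopper-Pearson intervals at 95%, for counting error only. No test was made, since there is 1 library per genotype. The median-of-ratios scaling divided by the median gene's ratio. Gene spans came from GENCODE M21. SciPy 1.17.1 and NumPy 2.4.6 were used, and the calculations were tested on simulated data.

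The genes, the lists and the markers were chosen with earlier results of these data known. Named genes are the 10 genes in every class, the 3 highest and 3 lowest log2 ratios of each list among genes with 10 or more UMIs, and the 10 genes most like the sum across classes among those at 50 CPM or more in a class; not all are printed. Alternatives were other clusterings and thinning, a looser cell filter (500 UMIs, 20% mitochondrial) and a stricter one (2000 UMIs, 5%), called doublets left in, 1 sex pattern at a time, a prior of 1 CPM, equal weight for every cell, and median-of-ratios scaling. Put through the same alternatives after the data were seen were single genes, class sums, the weighted sum and the class counts of Jun, Junb and Dusp1, and macrophage-like cells without neutrophil-marker cells were added.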

Additional observations from a re-analysis of the deposited data

Results flagged for a closer look

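In some classes the 10 genes summed lower in the Gmnc-/- library and in others higher. Ratios of the summed CPM, Gmnc-/- over wild-type, were 0.944 in microglia-like and 0.961 in intermediate progenitor-like cells, against 1.06 in astroglia-like, 1.07 in interneuron-like, 1.10 in oligodendrocyte lineage-like, 1.36 in striatal-like and 3.71 in erythroid-like cells. These are the classes of 200 or more cells in both libraries whose counting interval leaves out 1. With 1 library per genotype the difference between classes was not tested. Erythroid-like cells had 164 CPM in the Gmnc-/- and 44.1 CPM in the wild-type library, and the median gene of that class moved by -0.74 on the log2 scale under median-of-ratios scaling.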

How the results depend on the processing

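Over all cells the direction of the median and of the sum held in each setting but the wild-type class composition, where the median log2 ratio was 0.0079 (-0.37 as measured), the summed one 0.089 (-0.37) and the immediate early median 0.18 (-0.48). In that setting Fos (0.15), Fosb (0.32), Jun (0.29), Egr1 (0.21) and Atf3 (0.26) also turned, and as a mean over cells Jun (0.011) and Egr1 (0.072) did. With a prior of 1 CPM the median was -0.53, and averaged over cells it was -0.23. The sum was -0.32 with the looser and -0.39 with the stricter filter, -0.35 with doublets kept, -0.32 in female-pattern and -0.35 in male-pattern cells, and -0.22 as a mean over cells. The immediate early median was -0.43 in female-pattern cells and -0.31 as a mean over cells. The log2 ratio of the share of cells with 3 or more genes (-0.38) was -0.26 and -0.53 with the looser and the stricter filter, -0.21 in male-pattern cells, -0.23 after thinning to more UMIs per cell and -0.19 for 2 or more genes.

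The weighted sum (0.089) turned to -0.16 with doublets kept. It was 0.060 with the looser and 0.17 with the stricter filter, 0.13 in female-pattern and 0.034 in male-pattern cells, 0.18 and 0.070 at resolutions of 0.5 and 2, and 0.15 with the 10 genes and the other lists kept for clustering. The number of classes with a lower sum (3) was 1 with the looser filter, 5 with doublets kept, 0 in male-pattern cells and 1 at a resolution of 2. Male-pattern cells left 2 classes to count, with Junb and Dusp1 lower in 2 and Jun higher in 2, and female-pattern cells left 6, with Jun higher in 5. The stricter filter left 7 classes, with Junb lower in 5, Dusp1 lower in 6 and Jun higher in 7. The astroglia-like sum turned to -0.12 with doublets kept and -0.080 under median-of-ratios scaling, the oligodendrocyte lineage-like one to -0.053 with doublets kept, and the excitatory neuron-like one to 0.024 with the looser filter, 0.050 with doublets kept, 0.10 in male-pattern cells, and 0.020 and 0.0030 at resolutions of 0.5 and 2. The cause was not tested. The stricter filter used the doublet calls of the 1000 UMI filter. Depth limits the heat shock genes, with 100 and 230 UMIs in the Gmnc-/- and the wild-type library.

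No paired analysis was possible because there is 1 library per genotype and the replicate numbers only name samples.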
